A study of Mus musculus with 2 samples.

Results

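The genes of DNA replication origins and forks were followed in splenic CD8+ T cells kept with or without methionine. The set was a fixed list of 49 gene symbols, chosen with earlier results of these data known. It covers origin licensing, the replicative helicase, the polymerases, the sliding clamp and fork protection. All 49 were found, each under 1 identifier, among the 54532 genes of the count table, and all averaged 10 counts or more over the libraries. The cells came from wild-type mice, which the labels call ND without explaining the abbreviation. These cells were cultured for 8 h in RPMI 1640 medium or in RPMI 1640 methionine (-) medium, and RNA of each culture was sequenced. With a single library from each medium, the differences have no replicate check and cannot be told apart from a difference between cultures or libraries. The age, sex and strain of the mice, how many animals gave cells, and whether the T cells were stimulated were not given in the sources used here.

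DNA replication starts at origins marked by the origin recognition complex, ORC. In G1 phase, ORC, CDC6 and CDT1 load the ring-shaped MCM2-7 complex onto DNA, and geminin blocks CDT1 once S phase begins. The kinase CDC7-DBF4 and further factors then add CDC45 and the GINS complex to loaded MCM2-7, and MCM10 helps to make this the active helicase. Polymerase alpha-primase lays down primers, polymerases epsilon and delta extend them while held by the PCNA clamp that the RFC complex loads, and FEN1 and LIG1 join the Okazaki fragments. RPA coats single-stranded DNA, and Timeless, Tipin, Claspin and AND-1 (Wdhd1) hold the moving fork together. In mammalian cells many of these genes are transcribed under E2F factors at the entry into S phase, and CD8+ T cells make their products in large amounts when they leave rest to divide.

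Total counts were 14646527 in the complete-medium library, in which 19110 genes had a count, and 19647681 in the methionine-free library, in which 18374 did. The 9 CD8 T cell markers, Cd8a, Cd8b1 and CD3 chains among them, all lay within 1.5-fold between the libraries and summed to 2442 and 2153 CPM, where CPM is counts per 1000000 counts of a library after TMM scaling, which sets the bulk of genes level between the libraries. Markers of B and plasma cells summed to 13.5 CPM in complete and 7.81 CPM in methionine-free medium. Of the 6 measured ones, 4 were at least 1.5-fold lower, against 18.0% of all measured genes, and none was at least 1.5-fold higher. Ms4a1 went the other way, with 13 counts in complete and 25 in methionine-free medium, 1.44-fold higher. Jchain, which was not among the measured ones, had 0 and 11 counts. Myeloid and dendritic cell markers summed to 13.8 and 32.7 CPM. Of the 3 measured ones, 2 were at least 1.5-fold higher, against 15.7% of all such genes. NK cell markers summed to 2.79 and 2.40 CPM, CD4 T cell markers to 4.15 and 4.54 CPM and erythroid precursor markers to 1.57 and 2.04 CPM. S100a8 and Klrb1c were at 0 counts in both libraries. Rn7sk, a small RNA without a poly(A) tail, had 11 and 115 counts. Of the other RNAs on the same list, Terc had 2 and 4 counts, and Rpph1 and Rmrp had 0 in both libraries. Malat1 had 1406 and 1850 counts and Neat1 1687 and 2429, both within 1.5-fold after scaling. The labels name a whole-RNA kit and an mRNA kit without saying which library each made. The part of these cell types and kits in the differences below was not tested.

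Replication genes lay lower without methionine, in nearly every role. Of the 49 members, 43 were at least 1.5-fold lower and none was at least 1.5-fold higher, against 18.0% and 15.7% of all 13041 measured genes, those that averaged 10 counts or more over the libraries. At 2-fold, 39 members were lower, against 9.29% of all genes, and at 4-fold 12 were lower, against 2.98%. The median log2 difference, methionine-free minus complete medium, was -1.30 over the members and 0.04 over all genes. Together the members took 0.898% of the scaled counts of the complete-medium library and 0.345% of those of the methionine-free library, 2.60-fold less. In bulk RNA, fewer cells in S phase and less of each transcript per cell cannot be told apart.

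**Figure D1:**
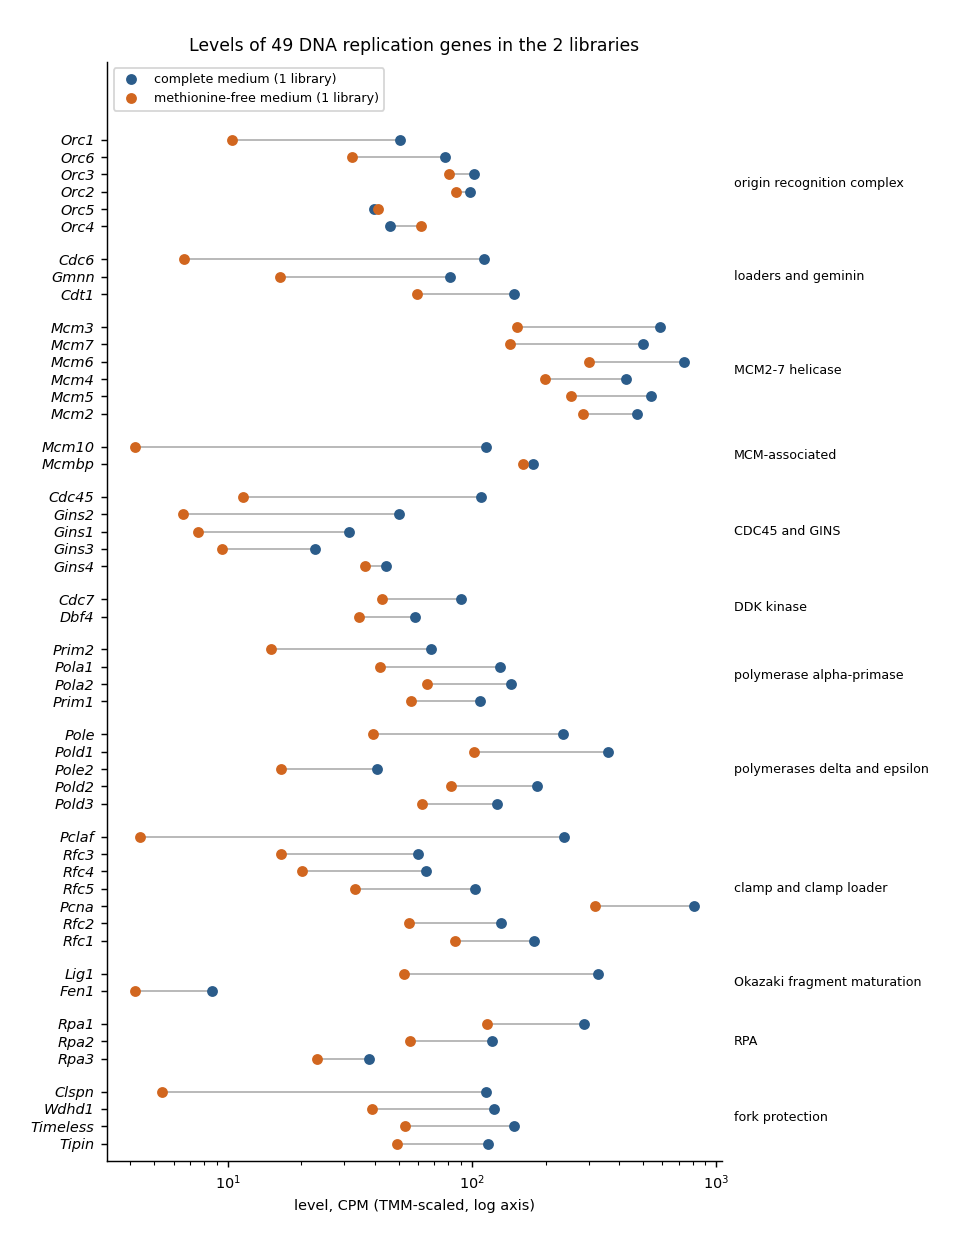
Level of each of the 49 genes in CPM on a log axis, with the complete-medium library in blue and the methionine-free library in orange, grouped by role. The orange point lies left of the blue one for all genes but Orc5 and Orc4, and the widest gaps are those of Pclaf, Mcm10, Clspn and Cdc6.

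The differences were far from even. By the estimate, 4 members were at least 16-fold lower (Pclaf, Mcm10, Clspn and Cdc6), Cdc45 was between 8-fold and 16-fold lower, 7 lay between 4-fold and 8-fold lower, 27 between 2-fold and 4-fold lower and 4 between 1.5-fold and 2-fold lower. The other 6, namely Orc2, Orc3, Orc4, Orc5, Mcmbp and Gins4, lay within 1.5-fold. Folds are ratios of scaled counts, and the range after each is the exact conditional 95% interval of the counts, which covers counting error only. That interval lay below a ratio of 1 for 47 members, above 1 for Orc4 and across 1 for Orc5, and for 42 members it lay wholly past 1.5-fold lower. No member had fewer than 82 counts in either library. The log2 difference did not follow the starting level: across the 49 genes, its Spearman rho with the complete-medium CPM per exon kb was -0.02 (CPM divided by the length of the gene's merged exons in kb), a description over genes that share the same 2 libraries.

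**Figure D2:**
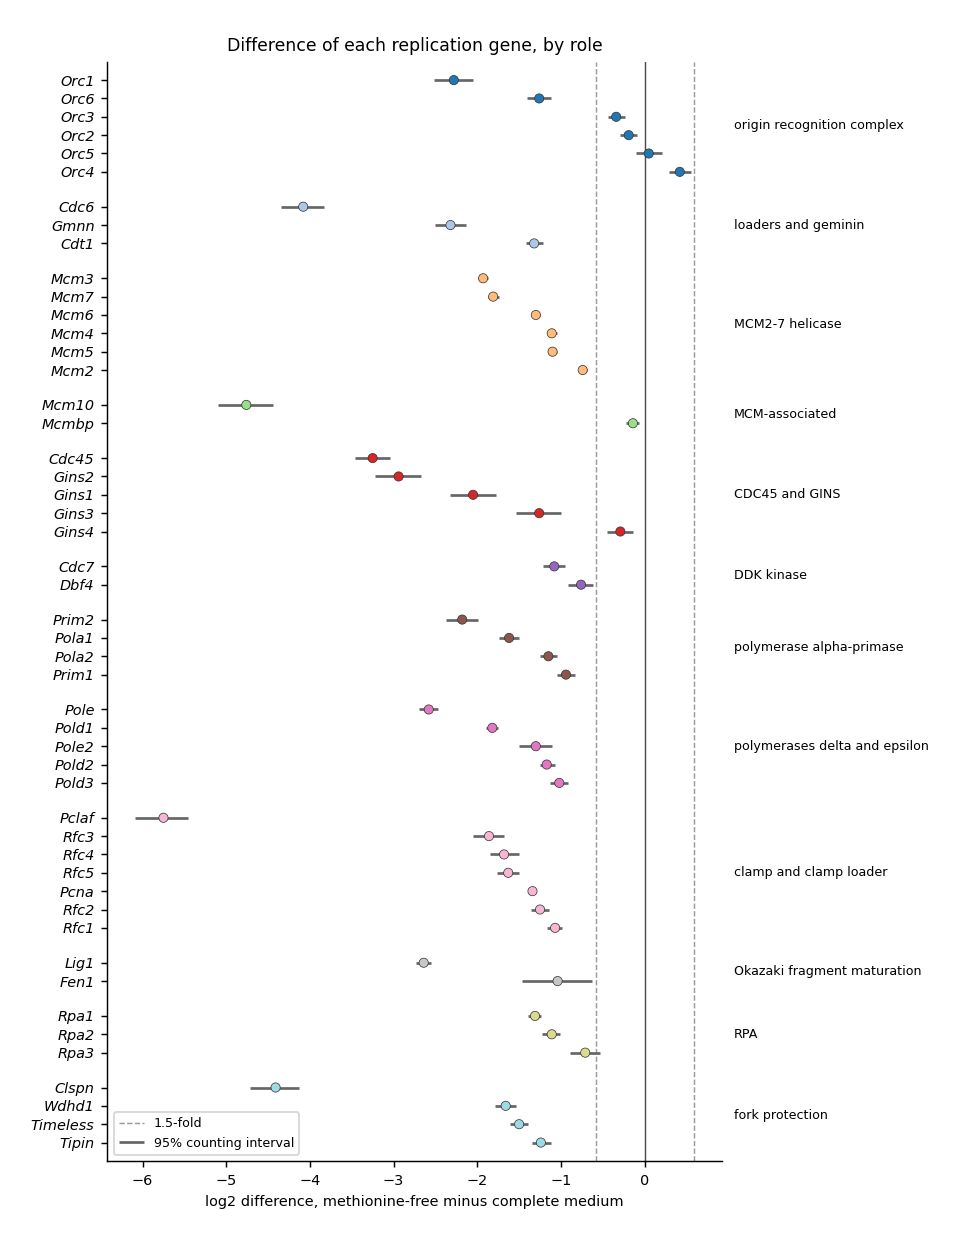
Log2 difference of each gene, methionine-free minus complete medium, with its 95% counting interval (bar; on the most abundant genes it is narrower than the point) and dashed lines at 1.5-fold, grouped by role. Orc2, Orc3, Orc4, Orc5, Mcmbp and Gins4 lie between the dashed lines, and Pclaf at -5.75 lies farthest left.

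E2F-type letters stood in a larger share of these genes' promoters than of promoters at large. RefSeq promoter windows of GRCm38.p6, 250 bases before to 50 after a gene's start, were matched by symbol for 40 of the 49 members, with 49 windows in all. An E2F-type match was any of TTTCCCGC, TTTGGCGC, TTTCGCGC or TTTGCCGC on either strand. It was found in 18 of the 49 member windows (36.7%), in 2.26% of all 32851 windows and in 4.18% of the 11784 windows of measured genes, and the median GC content of these 3 sets was 61.3%, 52.7% and 60.7%. CCAAT boxes (CCAAT, either strand) were in 51.0% of member windows, 37.4% of all windows and 38.0% of the windows of measured genes. The CHR element of genes of late cell cycle phases (TTTGAA, either strand) was in 16.3%, 17.9% and 12.1% of the same sets. The members' share lay below that of all windows and above that of the windows of measured genes. A match is a run of letters in this window and not a shown binding site.

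To show what such promoters look like, 8 stretches are given from 190 bases before the start to 10 bases from it, each 5′ to 3′ on the gene's strand, with E2F-type matches (runs of 8, or 12 where 2 overlap) and CCAAT boxes (runs of 5, ATTGG on the opposite strand) in capitals. They were chosen after the values were seen, as genes with large differences (Pclaf, Cdc6, Mcm10 and Orc1), abundant helicase genes (Mcm6 and Mcm5) and genes within 1.5-fold (Mcmbp and Orc5).
Pclaf (chr9:65890133-65890332, plus strand): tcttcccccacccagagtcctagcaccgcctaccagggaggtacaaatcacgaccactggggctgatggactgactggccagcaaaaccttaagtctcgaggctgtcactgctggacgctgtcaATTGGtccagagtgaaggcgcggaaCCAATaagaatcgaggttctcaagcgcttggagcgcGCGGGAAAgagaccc
Cdc6 (chr11:98907961-98908160, plus strand): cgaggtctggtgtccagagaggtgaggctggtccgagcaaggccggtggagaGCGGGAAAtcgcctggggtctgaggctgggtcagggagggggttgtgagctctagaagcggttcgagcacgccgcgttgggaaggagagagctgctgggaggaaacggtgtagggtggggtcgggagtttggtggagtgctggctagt
Mcm10 (chr2:5012782-5012981, minus strand): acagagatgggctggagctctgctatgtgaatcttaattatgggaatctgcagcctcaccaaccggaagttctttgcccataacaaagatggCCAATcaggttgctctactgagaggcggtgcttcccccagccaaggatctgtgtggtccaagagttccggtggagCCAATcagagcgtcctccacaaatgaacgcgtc
Orc1 (chr4:108579264-108579463, plus strand): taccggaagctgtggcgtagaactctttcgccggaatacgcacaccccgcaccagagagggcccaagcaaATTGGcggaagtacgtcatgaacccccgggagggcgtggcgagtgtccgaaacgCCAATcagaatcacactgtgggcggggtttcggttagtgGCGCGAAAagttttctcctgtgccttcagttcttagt
Mcm6 (chr1:128359696-128359895, minus strand): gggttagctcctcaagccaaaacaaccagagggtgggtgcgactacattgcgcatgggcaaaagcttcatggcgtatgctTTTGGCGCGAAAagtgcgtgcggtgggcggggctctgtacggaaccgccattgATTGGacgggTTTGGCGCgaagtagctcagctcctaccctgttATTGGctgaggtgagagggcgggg
Mcm5 (chr8:75109319-75109518, plus strand): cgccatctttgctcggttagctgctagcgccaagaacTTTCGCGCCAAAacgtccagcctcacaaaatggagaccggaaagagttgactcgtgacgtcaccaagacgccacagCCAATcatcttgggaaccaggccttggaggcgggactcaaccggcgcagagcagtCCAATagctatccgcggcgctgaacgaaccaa
Mcmbp (chr7:128740420-128740619, minus strand): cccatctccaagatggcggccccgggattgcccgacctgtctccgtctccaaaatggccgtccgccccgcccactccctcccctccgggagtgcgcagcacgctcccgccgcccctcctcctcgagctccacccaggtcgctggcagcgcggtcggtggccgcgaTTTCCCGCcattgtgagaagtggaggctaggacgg
Orc5 (chr5:22550329-22550528, minus strand): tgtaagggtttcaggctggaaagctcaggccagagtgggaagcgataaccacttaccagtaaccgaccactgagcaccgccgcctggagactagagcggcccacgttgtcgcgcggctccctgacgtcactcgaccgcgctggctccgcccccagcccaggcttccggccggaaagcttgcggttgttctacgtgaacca

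Positions count from the RefSeq start, which differs from the GENCODE gene start for 7 of the 8 genes, by 31 to 350 bases. That of Pclaf lies 86 bases downstream of its GENCODE start, and that of Cdc6 350 bases downstream. The whole Cdc6 stretch, with its E2F-type match, therefore lies inside the gene as GENCODE annotates it. So do all marked sites of Pclaf and the E2F-type matches of Orc1 and Mcmbp. In these stretches, Pclaf has 1 E2F-type match that spans its RefSeq start (bases -5 to 3, with no base 0) and CCAAT boxes at -66 and -41. Mcm6 has 3 matches, of which the pair from -110 to -99 overlaps, and Mcm5 has an overlapping pair from -153 to -142. Mcm10, 27.2-fold lower, has CCAAT boxes at -98 and -23 and no E2F-type match in the window, while Mcmbp, 1.1-fold lower, has a match at -25. Orc5 has neither kind of match. Over the 40 members with a window, the 18 with an E2F-type match had a median log2 difference of -1.71 (range -5.75 to -0.14), and the 22 without had -1.13 (range -4.76 to 0.42). The ranges of both sets overlap.

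The subunits of ORC, which marks origins, differed among themselves. Orc1, whose protein comes and goes with the cell cycle, had 743 and 204 counts, complete medium first here and below, and was 4.86-fold lower (4.16 to 5.70). Orc6 had 1133 and 632 counts and was 2.39-fold lower (2.17 to 2.64). The other 4 genes, which encode further subunits of the complex, lay within 1.5-fold. Orc3 had 1499 and 1583 counts, 1.26-fold lower after scaling (1.18 to 1.36), and Orc2 had 1442 and 1685 counts, 1.14-fold lower (1.06 to 1.23). Orc5, with 583 and 806 counts, was 1.04-fold higher with an interval that held 1 (0.930 to 1.15). Orc4, with 678 and 1210 counts, was 1.34-fold higher (1.22 to 1.47), the only member whose interval lay above 1. Orc2 shares 24.0% of its exon bases with Nif3l1 on the opposite strand. Reads of such partners cannot be told apart if strand was ignored in counting, which was not given in the sources used here. This limit holds for all 15 members that share exon bases with an opposite-strand gene, Orc1, Orc4 and Orc6 among them. Orc6 shares 7.14% with Vps35, which had 2299 and 2714 counts.

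Of the MCM loaders, Cdc6 differed most. It had 1652 and 130 counts, 17.0-fold lower (14.2 to 20.4). Cdt1, the other loader, had 2183 and 1169 counts and was 2.49-fold lower (2.32 to 2.68). Gmnn, which encodes the CDT1 inhibitor geminin, had 1195 and 319 counts and was 5.0-fold lower (4.41 to 5.67). Per exon length, Cdt1 and Gmnn stood at a ratio of 0.992 in complete medium and of 1.99 without methionine.

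All 6 genes of the MCM2-7 ring, the core of the helicase, were at least 1.5-fold lower, and none was 4-fold lower. They are among the most abundant members, with 6287 to 10816 counts in complete medium and 2802 to 5880 in methionine-free medium. Mcm3 had the largest difference, with 8589 and 3004 counts, 3.81-fold lower (3.66 to 3.98), and Mcm2 the smallest, with 6971 and 5575 counts, 1.67-fold lower (1.61 to 1.73). Between them lay Mcm7 at 3.50-fold, Mcm6 at 2.45-fold, Mcm4 at 2.16-fold and Mcm5 at 2.14-fold lower. The intervals of Mcm4 and Mcm5 overlap, and those of the other neighbours in this order do not. Levels per exon kb spanned 119 CPM (Mcm4) to 193 CPM (Mcm3) in complete medium, a ratio of 1.62, and 48.3 CPM (Mcm7) to 84.4 CPM (Mcm2) without methionine, a ratio of 1.75. The order of the 6 genes differed between the libraries, with Mcm3 the first of them in complete medium and the fifth without methionine.

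Of the factors that turn the loaded ring into a helicase, Mcm10, Cdc45 and Gins2 had larger folds than any ring gene, with intervals above theirs, while the interval of Gins1 overlapped those of Mcm3 and Mcm7. Mcm10, an activator of the helicase, had 1672 and 82 counts, 27.2-fold lower (21.8 to 34.4). Cdc45, a helicase subunit, had 1603 and 225 counts, 9.51-fold lower (8.26 to 11.0). Of the 4 GINS subunits, Gins2 was 7.68-fold lower (6.36 to 9.34), with 737 and 128 counts, Gins1 4.15-fold (3.44 to 5.03) and Gins3 2.40-fold (2.0 to 2.89). Gins4 had the smallest difference, with 655 and 713 counts, 1.23-fold lower (1.1 to 1.36). Gins2 shares 70.7% of its exon bases with Gse1 on the opposite strand, which had 756 and 758 counts. Mcmbp, which encodes an MCM-binding protein, had 2611 and 3155 counts and was 1.1-fold lower (1.05 to 1.16). Per exon length, Mcm6 exceeded Cdc45 by 3.31-fold in complete medium and 12.8-fold without methionine, and Mcm2 exceeded Mcm10 by 6.13-fold and 99.9-fold. These pairs, like the other pairs of genes set side by side per length, were chosen after their values were seen.

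Both genes of the origin-firing kinase were lower by close to 2-fold. The catalytic subunit gene Cdc7 had 1324 and 834 counts and was 2.12-fold lower (1.94 to 2.31). Dbf4, its activator, had 858 and 675 counts and was 1.70-fold lower (1.53 to 1.88).

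The polymerases lay lower in all 9 genes. In polymerase alpha-primase, Prim2, the large primase subunit, had 998 and 294 counts, 4.53-fold lower (3.97 to 5.18), while Prim1, the catalytic primase subunit, had 1585 and 1101 counts, 1.92-fold lower (1.78 to 2.08). Pola1, the polymerase subunit, was 3.08-fold lower (2.84 to 3.35) and Pola2 2.22-fold (2.07 to 2.38). Pole, the catalytic subunit of the leading-strand polymerase, had 3461 and 770 counts, 6.0-fold lower (5.54 to 6.49), against 2.47-fold (2.15 to 2.84) for its partner Pole2. Pold1, the catalytic subunit of polymerase delta, was 3.53-fold lower (3.35 to 3.72), with 5295 and 2002 counts. The accessory gene Pold2 was 2.24-fold lower (2.11 to 2.39). Pold3, another accessory subunit, had 1858 and 1219 counts and was 2.03-fold lower (1.89 to 2.19). Their small partners outside the 49, Pole3, Pole4 and Pold4, named after their values were seen, were 1.14-fold lower, 1.19-fold higher and 1.22-fold higher.

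Pclaf, which encodes a small PCNA-binding protein of S phase (PAF15), had the largest difference of all members. It had 3502 and 86 counts, or 238 and 4.39 CPM, and was 54.3-fold lower (43.9 to 68.1), and only 6 of the 13041 genes had a lower log2 difference. The gene lies on chromosome 9 at 65890237 to 65903266, plus strand (GRCm38, GENCODE M21). Pcna, the clamp itself and the member with the most counts, had 11840 and 6240 counts, 2.53-fold lower (2.45 to 2.61). Per exon length, Pcna exceeded Pclaf by 4.87-fold in complete medium and by 105-fold without methionine. The 5 subunit genes of the RFC clamp loader were lower by between 2.10-fold (Rfc1, 1.98 to 2.24) and 3.63-fold (Rfc3, 3.19 to 4.13), with Rfc4 at 3.20-fold, Rfc5 at 3.10-fold and Rfc2 at 2.37-fold. Rfc1, the large subunit, had 2639 and 1675 counts, and Rfc3 had 881 and 324. Rfc4 shares 13.4% of its exon bases with Eif4a2 on the opposite strand, which had 6924 and 14838 counts. Rfc5 shares 15.4% with Wsb2 and Rfc2 19.1% with Lat2, so the limit given for Orc2 holds for these 3 genes too. Pcna, Pclaf and Rfc5 have pseudogenes at least 90% identical over at least 200 bases, the most counted of which, Pcna-ps2, had 71 and 44 counts.

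Lig1, the ligase that seals Okazaki fragments, had 4833 and 1033 counts, 6.24-fold lower (5.84 to 6.68). Fen1, the flap nuclease, had only 127 and 82 counts, 2.07-fold lower (1.55 to 2.76), the lowest level of any member in complete medium. The count of Fen1 is uncertain. Gm10143, annotated as an antisense gene on the opposite strand, covers 78.8% of the exon bases of Fen1 and had 18 and 7 counts. Fen1 also shares 5.37% of them with Tmem258, which had 733 and 850 counts. All 3 RPA genes were at least 1.5-fold lower, with intervals that do not overlap. Rpa1 had 4197 and 2255 counts, 2.48-fold lower (2.36 to 2.61), Rpa2 was 2.16-fold lower (2.01 to 2.34), and Rpa3 had 558 and 455 counts, 1.64-fold lower (1.44 to 1.86). Per exon kb they lay at 55.6 to 66.8 CPM in complete medium and 22.4 to 34.7 CPM without methionine.

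Among the fork protection genes, Clspn stood apart. It encodes Claspin, the adapter that passes the ATR checkpoint signal to CHK1, and had 1677 and 105 counts, 21.3-fold lower (17.5 to 26.2). Wdhd1, which links the helicase to polymerase alpha, was 3.17-fold lower (2.91 to 3.46). Timeless and Tipin, whose proteins form a pair, had 2193 and 1037 counts and 1704 and 965 counts, 2.82-fold lower (2.62 to 3.04) and 2.36-fold lower (2.18 to 2.55). Per exon length, Timeless exceeded Clspn by 1.46-fold in complete medium and by 11.0-fold without methionine.

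**Figure D3:**
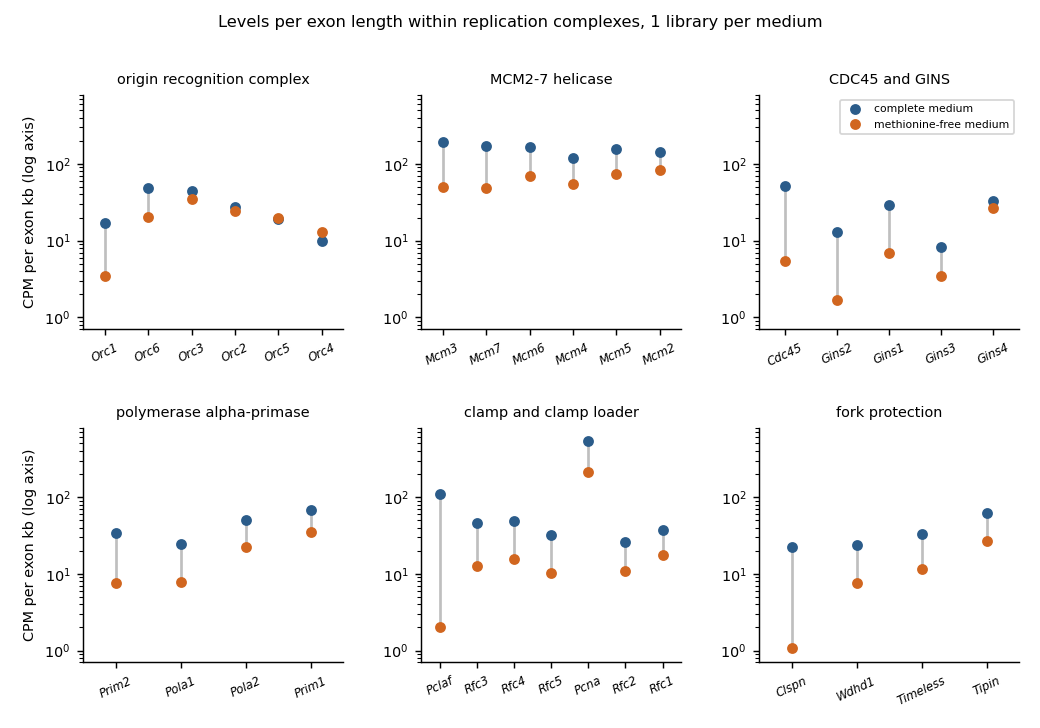
Level in CPM per exon kb (log axis) of the genes of 6 role groups, with complete medium in blue and methionine-free medium in orange, 1 library each. The ring genes lie close together in both media. Without methionine Orc1, Gins2, Prim2, Pclaf and Clspn are the lowest genes of their groups, and of these only Clspn is the lowest in complete medium too.

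Within roles, 37 pairs of genes neighbour each other in the order of their folds, and for 12 of them the counting intervals overlap, so their order is not resolved at this depth. For the other 25 the intervals do not overlap. The spread of levels per exon kb was wider without methionine in 10 of the 12 role groups. Between the highest and the lowest gene it was 4.93-fold in complete medium and 10.2-fold without methionine in ORC, 6.09-fold and 16.1-fold among Cdc45 and the GINS genes, 2.80-fold and 4.65-fold in polymerase alpha-primase and 2.77-fold and 25-fold among the fork protection genes. In the kinase pair and between Lig1 and Fen1 it was narrower, 1.16-fold against 1.07-fold and 26.2-fold against 8.68-fold. Fen1 sets the low end of the last 2 ratios, and Gins2 that of the 16.1-fold ratio. Genes on the opposite strand share 78.8% and 70.7% of the exon bases of Fen1 and Gins2, so these ratios are uncertain.

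The members lie on 16 chromosomes, with 9 of them on chromosome 5, and 14 have a measured protein-coding gene that starts on the opposite strand within 1000 bases. Of the neighbours, 2 were at least 1.5-fold lower, against 18.0% of all measured genes. Of the 14 replication genes in such pairs, 12 were at least 1.5-fold lower, and for 10 of these the neighbour was not. The median log2 difference was -1.29 for the replication genes and 0.00 for their neighbours. Cdc45 was 9.51-fold lower, while Ufd1, whose start lies 208 bases from it, had 801 and 1247 counts and was 1.17-fold higher (1.07 to 1.28). Orc1 and Prpf38a, with starts 87 bases apart, had log2 differences of -2.28 and 0.09, and Mcm4 and Prkdc, 466 bases apart, of -1.11 and -0.11. Wdhd1 was lower and Socs4, 74 bases away, 1.65-fold higher (1.54 to 1.77). In 2 pairs both genes were lower. Pxmp2, 120 bases from Pole, had 79 and 16 counts, 6.59-fold lower (3.82 to 12.1), and Slc25a40, 134 bases from Dbf4, was 2.19-fold lower (1.74 to 2.76).

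**Figure D4:**
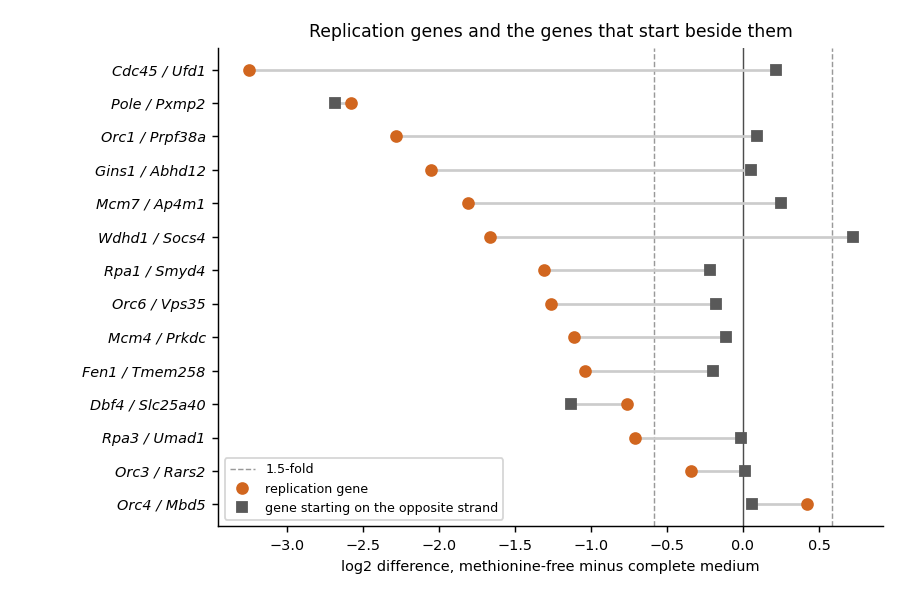
Log2 difference of 14 replication genes (orange circles) and of the protein-coding gene that starts within 1000 bases on the opposite strand (grey squares), with dashed lines at 1.5-fold. For 10 pairs the circle lies left of the left dashed line and the square does not, and for Pole and Dbf4 both do.

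Other genes of the replication programme were taken from lists that are not part of the 49. The medians of these lists lay below the 0.04 of all measured genes, to different degrees. Of all measured genes, 18.0% were at least 1.5-fold lower and 15.7% at least 1.5-fold higher. Of the 11 genes of deoxynucleotide supply, 9 were at least 1.5-fold lower and none higher by that measure, with a median of -1.94. Rrm2, the S-phase subunit of ribonucleotide reductase, had 3356 and 197 counts and was 22.7-fold lower (19.7 to 26.4). Of 30 further replisome genes, 15 were lower by that measure and 1 was higher, the median being -0.60. Dna2, a nuclease-helicase of Okazaki fragments, was 9.05-fold lower (7.38 to 11.2) and Ticrr, the origin-firing factor treslin, 8.73-fold (7.32 to 10.5). The higher one, Top1, a topoisomerase gene, was 1.51-fold higher (1.44 to 1.58), and was named after its value was seen.

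Of the 10 replication checkpoint genes, 3 were lower by 1.5-fold and none higher, against 18.0% and 15.7% of all measured genes. The median of this list was -0.10, near the 0.04 of all genes. Chek1, the kinase that Claspin helps to activate, was 3.60-fold lower (3.20 to 4.06) and Wee1, which restrains CDK1, 2.61-fold (2.27 to 3.0). The sensor kinase gene Atr, named after its value was seen, was 1.08-fold lower. Among 20 regulators of S-phase entry, 12 were lower and 1 was higher, the median being -0.89. The higher one, E2f5, was 2.05-fold higher and was named after its value was seen. E2f8 and E2f7, repressors of the E2F family, were 33.8-fold (23.2 to 51.2) and 30.8-fold lower (15.9 to 68.4). All 20 mitotic genes were lower, the median being -4.17, and Hmmr and Cenpf were 36.0-fold and 35.0-fold lower. The replication genes' median of -1.30 lay between those of the checkpoint and the mitotic list.

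**Figure D5:**
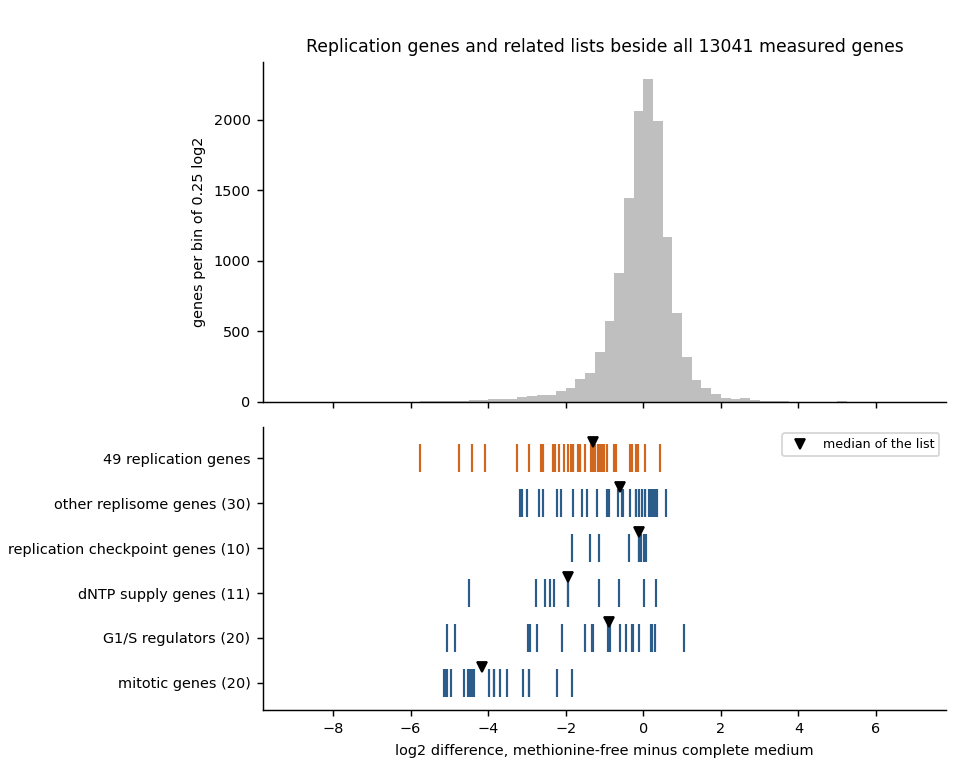
Upper panel, histogram of the log2 difference of the 13041 measured genes. Lower panel, each gene of the 49 (orange) and of 5 related lists (blue) as a tick, with the list's median as a triangle; the medians run from -0.10 for the checkpoint genes to -4.17 for the mitotic genes.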

How the data were processed

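The authors deposited 1 table of read counts per gene for both libraries, which were assumed to be raw. Its columns were matched to the samples by name (a misspelt form of Control, and Met). Per the submitters' processing notes, the build was mm10. Aligner, counter, annotation and use of strand were not given in the sources used here. Counts were scaled by TMM (edgeR 4.0.16 in R 4.3.3). The log2 difference used 0.5 added to each count in proportion to library size, and ratio intervals are exact conditional binomial intervals at 95% (scipy 1.17.1). The genes compared averaged 10 counts or more. With 1 library per medium no test was run, and a call is a fold of 1.5, 2 or 4. Exon lengths, overlaps and neighbours came from GENCODE M21, pseudogene copies from blastn 2.17.0, and promoters from RefSeq. The scripts were tested on simulated data.

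All members are described. In each role the genes with the largest and the smallest difference, and members under 1.2-fold, are given in full, and of each related list the 2 largest differences at a mean of at least 50 counts, except for values that are not reported here. The members and lists were chosen with earlier results of these data known. Scaling by DESeq2 1.42.0, library totals and upper quartiles, other count minimums and prior counts, and leaving out overlapping genes were tried as alternatives. Leaving out members with near-identical pseudogenes was added after seeing the data.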

Additional observations from a re-analysis of the deposited data

How the results depend on the processing

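The count of 43 of 49 genes at least 1.5-fold lower was the same under DESeq2 size factors, library totals, upper-quartile scaling, a prior count of 5, a minimum mean of 100 counts and no minimum, and the count at least 1.5-fold higher was 0 under each. The median of -1.30 lay between -1.31 and -1.29 under these. No member averaged fewer than 104 counts, so a minimum of 100 counts or none could not change these values of the members. Without the 22 members that overlap an annotated gene on the opposite strand, 24 of the remaining 27 (88.9%) were lower by 1.5-fold or more and the median was -1.15. Fewer genes were counted there, and the cause of the median's shift was not tested. Without the 10 members with a near-identical pseudogene, an alternative chosen after seeing the data, 33 of 39 were lower, with a median of -1.26. With a threshold of 2-fold, 39 were lower. Leaving out a replicate was not possible with 1 library per medium. Depth limits the order of genes with close folds and the values of Fen1, Mcm10 and Pclaf, which had fewer than 100 counts without methionine. The intervals cover counting error only and say nothing of the spread between cultures or animals.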
